A study of Mus musculus with 2 samples.

Results

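A set of 9 genes that serve the homeostatic work of Müller glia was described across the cell classes of the mouse retina and between a control and a diabetic library: *Glul*, *Slc1a3*, *Kcnj10*, *Aqp4*, *Car2*, *Car14*, *Slc4a4*, *Slc38a3* and *Dio2*. They were chosen by name for their function, and all 9 are among the 17087 genes of the count table. The study profiled retinal cell suspensions of male C57BL/6J mice by droplet-based single-cell 3′ RNA sequencing, with 1 library per group. The sample characteristics give the strain as C57BL/6, and the sex is stated only in the STZ treatment protocol, which both samples carry. The control group was untreated. The diabetic group (STZ) had received 55 mg/kg of streptozotocin, a toxin of the insulin-producing beta cells, by intraperitoneal injection at 3 to 5 weeks of age. Diabetes was defined by blood glucose above 300 mg/dL, and glucose stayed high for 25 weeks before the retinas were taken. Each library pooled 3 retinas, so the spread between animals is not in the data, no difference below has a test, and every interval covers counting error only.

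Müller glia are the radial glial cells that span the retina from the vitreous to the photoreceptor layer. They take up the glutamate that neurons release, through the transporter GLAST (*Slc1a3*), and convert it to glutamine with glutamine synthetase (*Glul*); glutamine is moved across membranes by system N carriers such as SNAT3 (*Slc38a3*). They carry potassium away from active neurons through the inward rectifier Kir4.1 (*Kcnj10*) and pass water through aquaporin-4 (*Aqp4*). Carbonic anhydrases, cytosolic (*Car2*) and membrane-bound (*Car14*), and the sodium bicarbonate cotransporter NBCe1 (*Slc4a4*) handle the carbon dioxide that photoreceptors produce. Type 2 deiodinase (*Dio2*) converts thyroxine to the active hormone triiodothyronine, which in brain is mainly a task of glia.

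The table held 7169 control and 12393 STZ cells, with a median of 3800 and 2062 unique molecular identifiers (UMIs, one per captured transcript) per cell. After filters, 5098 control and 8232 STZ cells were kept, and 21 cell barcodes occurred in both libraries, 3 of them on control and 2 on STZ Müller glia-like cells. Cells were clustered without the 9 genes and without the related genes listed further on, and clusters were named by markers that are not among the 9. Müller glia-like cells, named by 12 markers such as *Rlbp1* and *Sox9*, made up 1283 control and 1428 STZ cells. All 12 of those markers were detected in both libraries. Their median depth was 5706 UMIs in control and 3251 in STZ. The depth gap went with the mixture of clusters. Cluster 8, with a median of 1137 UMIs per control cell and 863 per STZ cell, held 4.29% of the control and 34.2% of the STZ Müller glia-like cells, but 0.996% and 9.66% of their UMIs. The summed level of 10 rod markers in Müller glia-like cells was 1180 CPM (UMIs of a gene per 1000000 UMIs of its class) in control and 2857 CPM in STZ, against 74669 and 64760 CPM in rod-like cells. Its part in the ratios between the libraries was not tested.

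Over the 8 classes that reached 50 cells in each library, 8 of the 9 genes had their highest level in Müller glia-like cells in both libraries. The exception was *Slc4a4*, whose highest level was in rod bipolar-like cells. The genes differed in how far they were confined to that class. *Glul*, *Slc1a3*, *Kcnj10*, *Aqp4*, *Car14* and *Dio2* had between 95.5% (*Car14*) and 98.5% (*Aqp4*) of their control UMIs in Müller glia-like cells, which supplied 30.9% of all control UMIs kept. *Car2* had 58.7%, *Slc38a3* 36.2% and *Slc4a4* 2.45%. In STZ the same 6 genes had between 83.2% (*Car14*) and 93.5% (*Aqp4*) of their UMIs there. Among the compared classes, RNA of these 6 genes was thus found mainly in Müller glia-like cells, and RNA of *Car2* and *Slc38a3* also in neurons. RNA of *Slc4a4* was scarce in Müller glia-like cells, and its protein was not measured. UMIs of a 3′ library are counts per transcript end and are not divided by transcript length, and levels were compared within each gene.

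**Figure D1:**
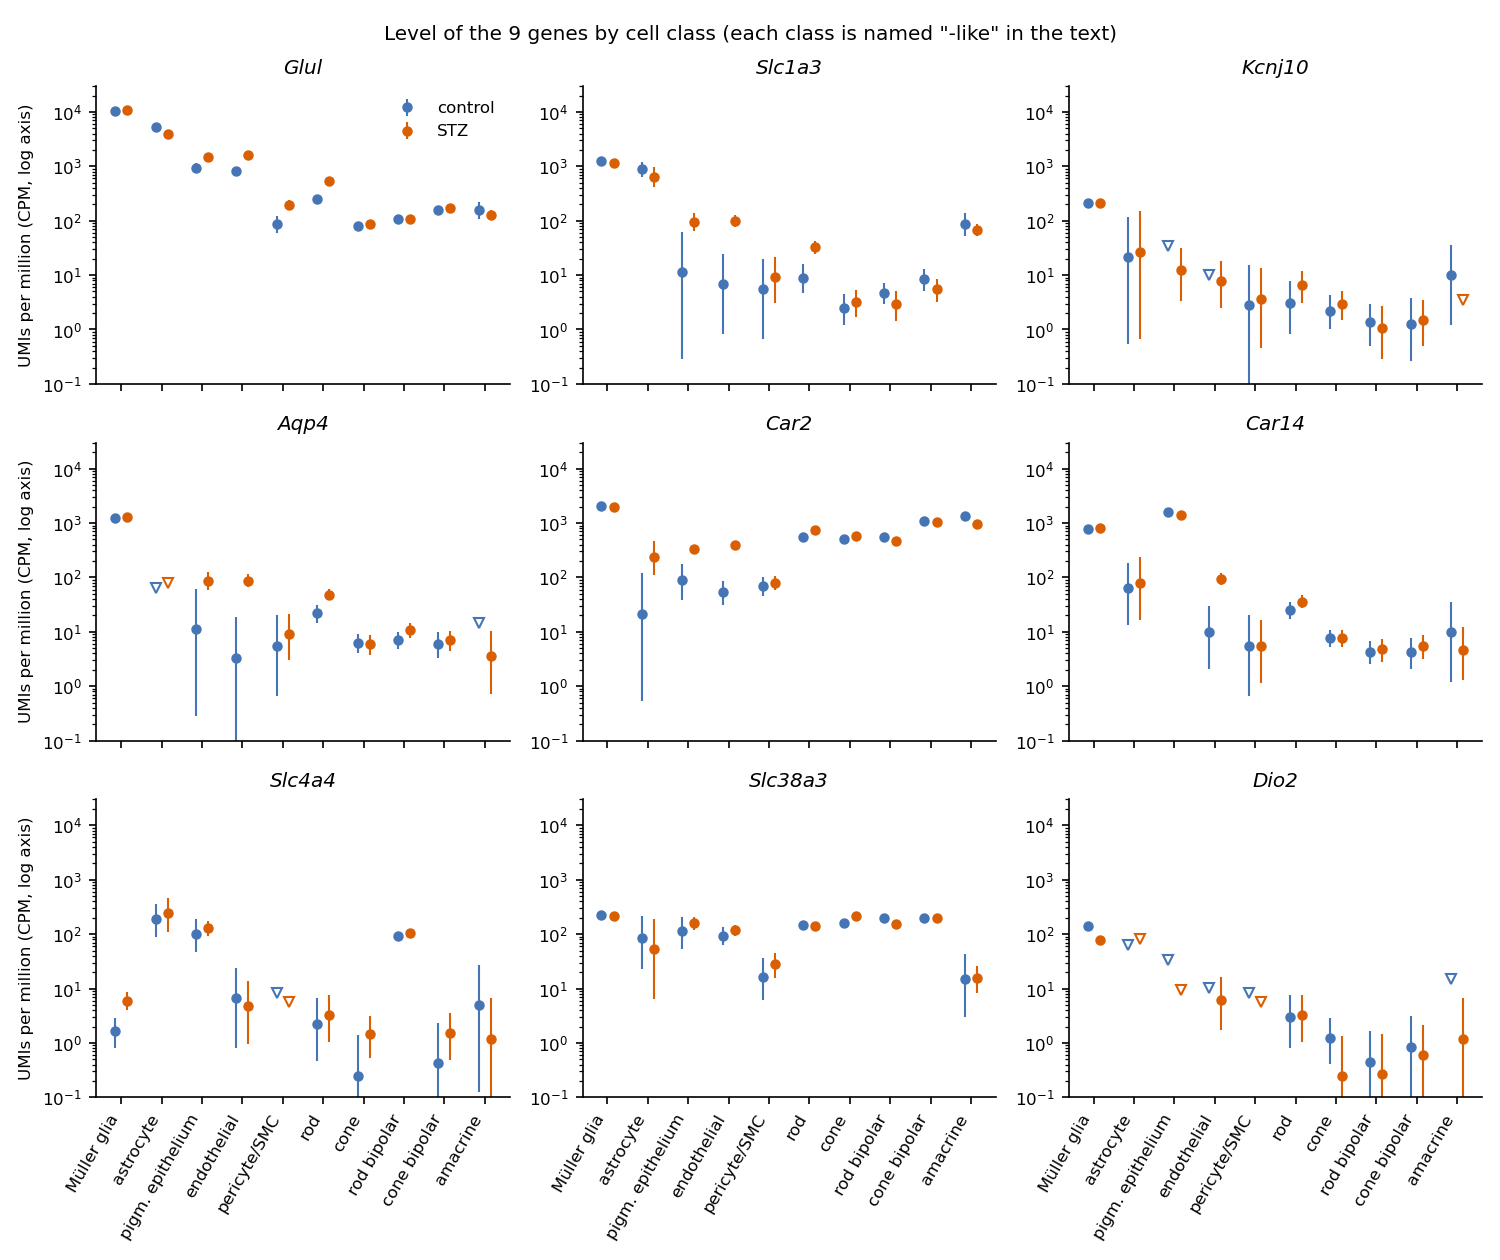
Level of each gene (vertical, CPM of the class, log axis) by cell class in the control (blue) and STZ (orange) library, with exact 95% Poisson intervals; open triangles are upper limits where no UMI was counted. *Glul* stands at 10578 and 10658 CPM in Müller glia-like cells and *Slc4a4* at 1.63 and 5.98 CPM, against 93.4 and 103 CPM in rod bipolar-like cells.

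Droplet libraries carry free RNA of abundant cells, so each class was also read against the Müller glia RNA it appeared to hold. The summed level of the 12 Müller glia markers in a class, relative to Müller glia-like cells, was used as a scale. A gene whose UMIs in another class came only from Müller glia RNA would stand at 1, if that class made none of the 12 markers itself. Marker RNA of the class's own would lower every value. In control cones the marker sum was 2.01% of its Müller glia-like level, *Rlbp1* 0.73%, and *Slc1a3* stood at 0.10. A value at or under 1 therefore does not show that all UMIs of a gene there were Müller glia RNA. In rods, cones and both bipolar classes, *Glul*, *Slc1a3*, *Kcnj10*, *Aqp4*, *Car14* and *Dio2* stood at or below 1.22, the highest being *Car14* in control rods. *Car2* stood between 7.49 and 24.9 in those classes, and *Slc38a3* between 13.0 and 81.6. With *Rlbp1* alone as the scale, chosen after seeing the data, the 6 genes reached at most 1.45 there (*Kcnj10* in control cones), *Car2* lay between 5.80 and 47.7 and *Slc38a3* between 10.1 and 119.

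**Figure D2:**
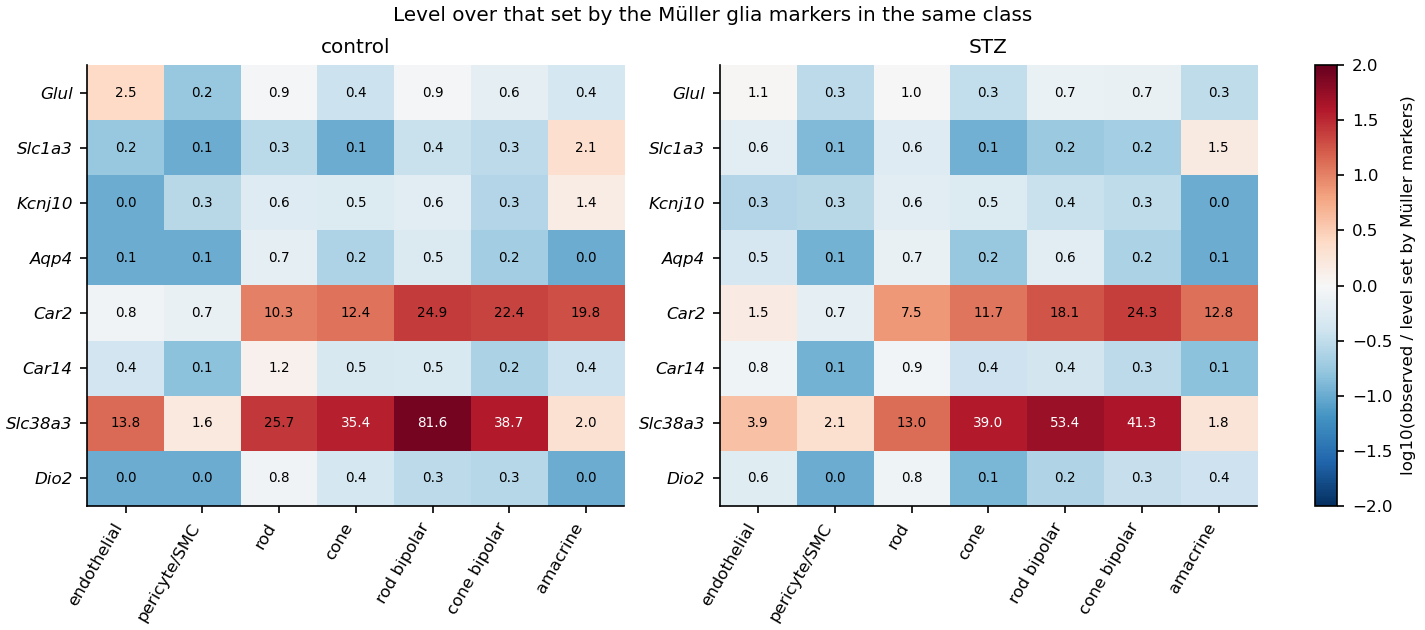
Observed level divided by the level that the Müller glia markers in the same class would give (number in each cell; colour, log10 of the number, with values under 0.1 given the colour of 0.1), for 8 of the genes in 7 classes in control (left) and STZ (right). *Slc4a4* is left out because its level in Müller glia-like cells is near 0; *Car2* and *Slc38a3* stand far above 1 in rods, cones and bipolar cells, up to 24.9 and 81.6, and the other 6 genes stand at 2.5 or below.

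The glutamate uptake gene *Slc1a3* was at 1235 CPM (95% interval 1209 to 1262) in control and 1152 CPM (1123 to 1182) in STZ Müller glia-like cells. In control its next class was the amacrine-like cells, at 88.7 CPM from 54 cells, or 2.15 (1.27 to 3.40) on the marker scale. In STZ amacrine-like cells it stood at 68.5 CPM, or 1.52 (1.15 to 1.96). By *Rlbp1* alone these 2 values were 4.31 and 6.31. In cones and both bipolar classes it stayed between 2.48 and 8.48 CPM in either library.

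Glutamine synthetase, *Glul*, reached 10578 CPM in Müller glia-like cells of the control retinas and 10658 CPM in those of STZ retinas. Its next class was the endothelial-like cells, at 810 and 1615 CPM. On the marker scale the endothelial level was 2.49 (2.19 to 2.83) in control and 1.07 (1.01 to 1.14) in STZ. By *Rlbp1* alone, which stood at 0.62% and 8.78% of its Müller glia-like level in endothelial-like cells, it was 12.3 and 1.73. Neurons lay between 79.6 CPM (control cones) and 527 CPM (STZ rods) (marker scale at most 0.98; by *Rlbp1* alone at most 1.37).

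*Slc38a3*, the glutamine carrier, had an almost flat profile over glia, photoreceptors and bipolar cells. In control it was at 223 CPM (211 to 234) in Müller glia-like cells, 199 CPM in cone bipolar-like, 198 CPM (185 to 211) in rod bipolar-like, 158 CPM in cone-like and 147 CPM in rod-like cells. In STZ the same classes had 215, 198, 156, 213 and 142 CPM. Müller glia-like and cone-like cells of the STZ library did not differ beyond counting error, and the first 3 control classes lay between 198 and 223 CPM. The gene was low in amacrine-like cells, at 14.8 and 15.4 CPM, and in pericyte or smooth muscle-like cells, at 16.6 and 27.8 CPM. Endothelial-like cells had 94.1 and 119 CPM.

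*Kcnj10* and *Aqp4*, the potassium and water channels, had little signal in the other compared classes. *Kcnj10* stood at 210 and 215 CPM in control and STZ Müller glia-like cells and below 10 CPM in all 7 other classes of both libraries. *Aqp4* was at 1265 and 1317 CPM in Müller glia-like cells. Its next level was 21.8 CPM in control rods and 87.5 CPM in STZ endothelial-like cells, which is below the level set by the Müller glia markers in both cases.

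The 2 carbonic anhydrases differed from each other in where they were found. Membrane-bound *Car14* was at 791 and 805 CPM in Müller glia-like cells and below 36 CPM in every neuronal class of either library. Cytosolic *Car2* was at 2073 CPM (2039 to 2108) and 1934 CPM (1896 to 1972) in Müller glia-like cells, followed in control by amacrine-like cells at 1370 CPM and cone bipolar-like cells at 1071 CPM. In STZ they had 973 and 1050 CPM. Both classes pooled clusters of very different *Car2* level. Amacrine-like cluster 16 had 3021 CPM in control and 2782 in STZ, above the Müller glia-like level in each library, and cluster 20 had 365 and 352 CPM. Cone bipolar-like cluster 12 had 2099 and 2433 CPM and cluster 4 had 489 and 496 CPM. The other cone bipolar-like clusters were lower in STZ, cluster 5 at 850 and 531 CPM and cluster 24 at 2082 and 1467 CPM. The order of the 2 class means also carries the mixture of clusters, and cluster 16 was 17 of 54 control and 50 of 216 STZ amacrine-like cells. Rods, cones and rod bipolar cells had between 477 and 734 CPM. The vascular classes had the least in control, with 53.8 CPM in endothelial-like and 69.3 CPM in pericyte or smooth muscle-like cells. That was 0.84 and 0.71 on the marker scale, and 4.18 and 3.56 by *Rlbp1* alone.

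Among the compared classes *Slc4a4* was found mainly in rod bipolar-like cells, and not in all of their clusters. Rod bipolar-like cells had 411 control UMIs and 391 STZ UMIs of it, or 93.4 CPM (84.6 to 103) and 103 CPM (92.9 to 114). A UMI was seen in 29.6% of the control and 29.0% of the STZ rod bipolar-like cells. Both libraries agreed within counting error, with an STZ to control ratio of 1.10 (0.956 to 1.27). Cone bipolar-like cells had 1 and 5 UMIs of it, or 0.424 and 1.51 CPM. Within the rod bipolar-like class, cluster 2 had 103 CPM in control and 115 in STZ, while cluster 14, with 129 and 137 cells, had 0 and 2 UMIs (0 CPM, with an upper limit of 8.71, and 4.56 CPM). Müller glia-like cells had 11 UMIs in control and 31 in STZ, or 1.63 CPM (0.815 to 2.92) and 5.98 CPM (4.06 to 8.49), and 4 of the STZ UMIs were in 1 cell. The summed rod bipolar markers in Müller glia-like cells were at 87.5 and 213 CPM, moving in the same direction.

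*Dio2* was at 139 CPM (130 to 148) in control Müller glia-like cells, from 934 UMIs, and at 77.3 CPM (70.0 to 85.3) in STZ, from 401 UMIs. No other compared class exceeded 6.25 CPM in either library. Outside the compared classes, control microglia-like cells had 8.91 CPM from 1 UMI, and unnamed cluster 13 of the STZ library had 14.5 CPM from 15 UMIs. A *Dio2* UMI was seen in 38.1% of the control Müller glia-like cells and 0.640% of the control rods, which have a median of 1707 UMIs. The gene lies at chr12:90724552-90738438 on the minus strand (mm10, GENCODE). Because *Dio2* was the measured gene with the largest difference between the libraries, the 250 bases before its RefSeq transcription start are shown (GRCm38.p6, chr12:90739039-90739288, minus strand, 5′ to 3′). Capitals mark the letters TGACGTCA of a cyclic AMP response element, 95 bases before the start, and TATAAA of a TATA box, 30 bases before it. Both distances are counted from the RefSeq start, which lies upstream of the start of the GENCODE gene interval (90738438).
Dio2: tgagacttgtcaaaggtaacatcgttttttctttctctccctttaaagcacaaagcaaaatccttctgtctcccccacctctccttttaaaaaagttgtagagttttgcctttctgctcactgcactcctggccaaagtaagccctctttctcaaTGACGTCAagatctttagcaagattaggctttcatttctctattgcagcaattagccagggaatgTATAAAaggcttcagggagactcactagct
Among 32851 RefSeq windows of 250 bases before to 50 after a start, searched on both strands, 1.79% held TGACGTCA and 13.6% held TATAAA. Windows were found for 6 of the 9 genes, and *Aqp4* was left out of the letter search. Among the windows of these genes that were searched, TGACGTCA occurred only in that of *Dio2*. The AP-1 letters TGANTCA, present in 7.81% of all windows, occurred in none of the searched windows of these genes. These are letter matches and not sites of measured binding.

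Between the libraries, the levels of 7 of the 8 genes measured in Müller glia-like cells lay within 1.5-fold, and *Dio2* was lower in STZ. A gene counts as measured where it has at least 10 CPM over both libraries together and at least 20 UMIs; *Slc4a4* missed the first limit. None of the 8 was at least 1.5-fold higher in STZ, where 6.02% of all 8905 genes measured in this class were. One, *Dio2*, was at least 1.5-fold lower, where 2.87% of all genes were. Past 2-fold, where 1.84% of all genes were higher and 0.415% lower, there was none of the 8. The median log2 ratio of the 8 genes was -0.02, against 0.03 over all measured genes. With 1 library per group these are differences between 2 libraries, and a difference between mice cannot be told apart from one between preparations.

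The 4 genes of channels and membrane-bound carbonic anhydrase or glutamine synthesis had log2 ratios near 0. *Glul* differed by 0.01 (-0.01 to 0.03), *Kcnj10* by 0.03 (-0.08 to 0.15), *Aqp4* by 0.06 (0.01 to 0.10) and *Car14* by 0.03 (-0.03 to 0.08) on the log2 scale. The uptake and carrier genes and *Car2* also stayed within 1.5-fold. *Slc1a3* differed by -0.10 (-0.15 to -0.05), *Car2* by -0.10 (-0.14 to -0.06) and *Slc38a3* by -0.05 (-0.17 to 0.06). The intervals of all 7 genes exclude a 1.5-fold difference between these libraries in either direction.

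**Figure D3:**
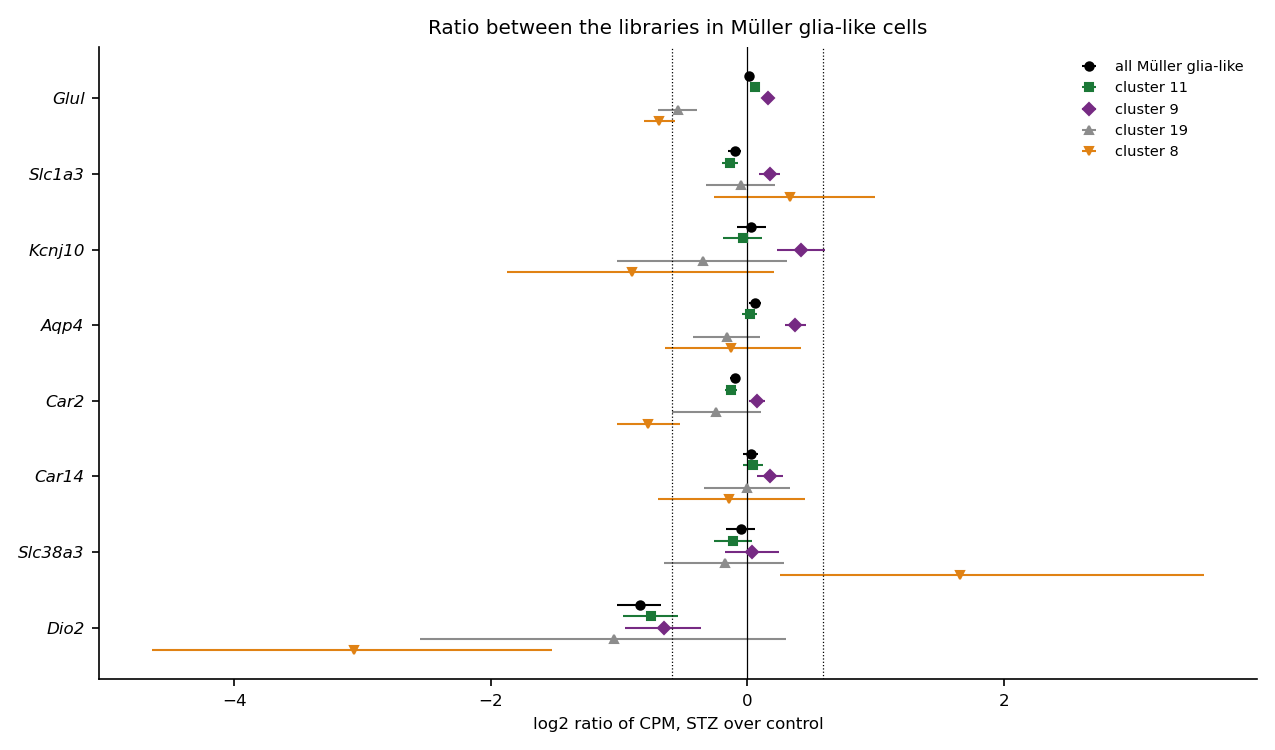
Ratio of CPM, STZ over control, on a log2 axis, for the 8 measured genes in all Müller glia-like cells (black) and in each of 4 Müller glia-like clusters (coloured), with 95% counting intervals; dotted lines mark 1.5-fold. *Dio2* lies left of 0 in every cluster, at -0.76 in cluster 11 and -0.65 in cluster 9, while the other genes scatter on both sides of 0.

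*Dio2* was 1.79-fold lower in STZ (1.59 to 2.02), a log2 ratio of -0.84 (-1.01 to -0.67). It was lower in each of the 4 Müller glia-like clusters. Cluster 11, the largest, had 144 and 85.2 CPM, from 554 and 258 UMIs. Cluster 9, led by immediate-early genes such as *Fosb* and *Jun*, had 134 CPM and 85.3 CPM, from 354 and 128 UMIs. Cluster 8 had 134 CPM and 16.0 CPM from only 9 and 8 UMIs. Cluster 19, led by collagen genes, had 93.7 CPM and 45.4 CPM from 17 and 7 UMIs, and there the interval of the log2 ratio, -2.56 to 0.30, included 0. Clusters 9 and 11 had nearly equal depth in both libraries, with median UMIs per cell of 6736 and 6600 in cluster 9 and 5545.5 and 5540 in cluster 11. In these 2 clusters together *Dio2* stood at 140 and 85.2 CPM, a log2 ratio of -0.72. It was the 1 of the 8 genes past 1.5-fold there, where 5.3% of all genes measured were higher and 2.94% lower. The same held in cluster 9, with 10.6% of all genes higher and 5.44% lower, and in cluster 11, with 5.44% and 4.7%. The 10 cells with most *Dio2* UMIs held 7.82% of them in control and 10.5% in STZ, so the level did not rest on few cells.

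Over single cells of equal depth the share of cells with *Dio2* was also lower in STZ, by less than in the shares as deposited. The share of Müller glia-like cells with a *Dio2* UMI was 38.1% (35.4 to 40.8) in control and 19.5% (17.5 to 21.7) in STZ as deposited. After each cell was thinned to 500 UMIs, the shares were 6.31% (5.04 to 7.79) and 3.57% (2.67 to 4.67). Thinned to 1000 UMIs, with 1215 control and 1067 STZ cells deep enough, they were 11.3% and 7.69%. In cluster 11 at 3000 UMIs per cell, 27.2% of 658 control cells and 20.7% of 497 STZ cells had a *Dio2* UMI, with means of 0.397 and 0.252 UMIs per cell. The median cell had none in either library.

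For *Aqp4*, *Slc1a3*, *Kcnj10* and *Slc38a3* the shares as deposited were further apart than the shares at equal depth. *Aqp4* was seen in 93.8% of control and 74.4% of STZ Müller glia-like cells, and at 500 UMIs in 44.4% (41.7 to 47.2) and 39.8% (37.2 to 42.4). *Slc1a3* went from 94.2% and 73.9% to 43.1% and 38.2%, *Kcnj10* from 60.7% and 41.2% to 8.96% and 8.12%, and *Slc38a3* from 65.9% and 46.4% to 12% and 11.6%. *Glul* was seen in 99.5% and 98.2% of the cells and, at 500 UMIs, in 97.4% and 93.8%. In cluster 11 at 3000 UMIs the mean cell had 30.9 *Glul* UMIs in control and 32.2 in STZ. Its cell-to-cell variance was 3.20 and 4.2 times the mean. *Aqp4* had means of 4.37 and 4.34, *Car2* of 6.45 and 6.09, *Slc1a3* of 3.97 and 3.60 and *Car14* of 2.48 and 2.58 UMIs per cell.

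Within Müller glia-like cells the genes differed by cluster. In the shallow cluster 8 of the STZ library, *Glul* was at 6221 CPM where cluster 11 had 10868 CPM, *Aqp4* at 489 against 1429 CPM, *Slc1a3* at 469 against 1198 CPM and *Kcnj10* at 87.9 against 207 CPM. The same cluster had 9357 CPM of rod markers in STZ, where cluster 11 had 2447 CPM. Its summed Müller glia markers stood at 9964 CPM in STZ, where cluster 11 had 18172 CPM. The part of either marker sum in the lower levels was not tested. In cluster 19, *Glul* was at 5389 and 3700 CPM and *Car2* at 937 and 792 CPM, below clusters 9 and 11. *Slc38a3* in turn had its highest levels there, at 507 and 448 CPM, where cluster 11 had 233 and 216 CPM.

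The ratios between the libraries also differed by cluster. In cluster 9 the channels were higher in STZ, *Kcnj10* by 0.42 (0.23 to 0.61) and *Aqp4* by 0.37 (0.29 to 0.46) on the log2 scale, while in cluster 11 they differed by -0.04 and 0.02. Neither passed 1.5-fold. In cluster 8, *Glul*, *Kcnj10* and *Car2* were at least 1.5-fold lower in STZ, with log2 ratios of -0.69, -0.90 and -0.77, where 20.9% of all genes measured in that cluster were. The *Kcnj10* ratio rests on 11 control UMIs, and its interval, -1.88 to 0.20, included 0. *Slc38a3* was higher in cluster 8 by 1.66, from 4 control UMIs, where 28.0% of all genes were. The control side of cluster 8 has 55 cells. The summed Müller glia markers of this cluster went from 16042 CPM in control to 9964 CPM in STZ, and their part in these ratios was not tested.

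Outside Müller glia, the measured genes past 1.5-fold were in endothelial-, rod- and pericyte or smooth muscle-like cells. The summed Müller glia markers are given beside them, and their part in the ratios was not tested. In endothelial-like cells, 87 in control and 396 in STZ, 5 of 6 measured genes were at least 1.5-fold higher in STZ, where 20.5% of all genes measured in that class were higher and 17.8% lower. The count is no support, since *Slc1a3*, *Aqp4* and *Car14* had 3 or fewer control UMIs and counted as measured only through the STZ library. *Car2* there went from 53.8 CPM (16 UMIs) to 403 CPM (258 UMIs), *Car14* from 3 to 60 UMIs and *Aqp4* from 1 to 56 UMIs. The summed Müller glia markers in this class went from 3.07% to 14.2% of their Müller glia-like level. In rod-like cells 3 of 6 genes were higher, against 9.32% of all genes (9.15% were lower): *Glul* from 250 to 527 CPM, *Slc1a3* from 9.03 to 32.5 CPM and *Aqp4* from 21.8 to 48.1 CPM. The markers there went from 2.56% to 5.07%. *Slc1a3*, on 12 control UMIs, was under 10 CPM in control and counted as measured only through the STZ library. *Glul* went from 193 to 266 CPM in rod-like cluster 6 and from 315 to 668 CPM in cluster 7. Cluster 7 held 253 of 625 control and 612 of 1019 STZ rod-like cells, so the class ratios also carry the mixture of clusters. In pericyte or smooth muscle-like cells 2 of 3 genes were higher, against 13.3% of all genes (10.2% were lower). The markers stood at 4.69% and 6.13%. The 2 genes were *Glul*, from 85.9 to 197 CPM, and *Slc38a3*, on 6 and 15 UMIs. The interval of the *Slc38a3* ratio of 1.67, 0.614 to 5.27, included 1. As whole classes, amacrine-, cone-, cone bipolar- and rod bipolar-like cells had none of the measured genes past 1.5-fold. Of all genes, 15.9%, 5.26%, 5.59% and 4.59% were higher there and 13.9%, 3.05%, 5.87% and 5.03% lower. Within cone bipolar-like cells *Car2* differed by cluster, at 850 and 531 CPM in cluster 5 and at 2099 and 2433 CPM in cluster 12.

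*Slc38a3*, which photoreceptors and bipolar cells held well above the marker scale, was 1.35-fold (1.22 to 1.5) higher in STZ cones, from 158 to 213 CPM. In rod bipolar-like cells it was 1.27-fold (1.14 to 1.41) lower in STZ, from 198 to 156 CPM. That was the direction in cluster 2, at 205 and 159 CPM, and not in cluster 14, at 128 and 146 CPM. In cone bipolar-like cells the STZ to control ratio was 0.995 (0.882 to 1.12). *Car2* was 1.41-fold (1.23 to 1.62) lower in STZ amacrine-like cells as a class, but within each of its clusters, 16 and 20, the counting intervals of the 2 libraries overlapped. In rod bipolar-like cells *Car2* was 1.18-fold (1.11 to 1.25) lower, with 558 and 448 CPM in cluster 2 and 607 and 707 CPM in cluster 14.

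Summed over all kept cells, the genes found mainly in Müller glia-like cells were lower in STZ. *Glul* stood at 3376 and 2634 CPM in the control and STZ library, *Slc1a3* at 388 and 273 CPM, *Aqp4* at 396 and 309 CPM and *Dio2* at 43.7 and 18.3 CPM. Müller glia-like cells were 25.2% of the kept control and 17.3% of the kept STZ cells, and held 30.9% and 22% of the kept UMIs. Numbers of cells recovered from a suspension and levels per cell are both in such sums, and shares of cells between 2 libraries were not tested.

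Genes of related functions were read in Müller glia-like cells from 8 further lists, of which 88 genes were in the table. Each count below stands beside 6.02% higher and 2.87% lower over all genes measured in these cells, and 5.3% and 2.94% in clusters 9 and 11. Among 12 measured genes of glutamate, GABA and glutamine handling, 1 was at least 1.5-fold higher and 1 lower in STZ, near those shares, with a median log2 ratio of 0.21. The higher one was *Got1*, cytosolic aspartate aminotransferase, at 21.1 and 39.3 CPM. The lower one was *Slc38a2*, the amino acid carrier SNAT2, at 209 and 89.9 CPM, 2.33-fold (2.10 to 2.59) lower. The glutamate transporter *Slc1a2* was at 607 and 791 CPM, within 1.5-fold.

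Of 7 measured potassium channel and sodium pump genes, 3 were higher in STZ and none lower, with a median of 0.41. Among them *Kcnma1*, the large-conductance calcium-activated potassium channel, went from 8.31 to 23.9 CPM on 56 and 124 UMIs. Its control level was under the CPM limit for a measured gene, and it counted as measured only through the STZ library. In cluster 8 *Kcnma1* had 0 control and 64 STZ UMIs. The chloride cotransporter *Slc12a2*, also among the 3, went from 23.4 to 35.5 CPM. In clusters 9 and 11 alone, 2 of the 7 were higher; *Kcnma1* was there at 8.63 and 12.1 CPM. *Kcnk1*, a two-pore potassium channel, was at 219 and 291 CPM, within 1.5-fold. The 8 water channel and dystrophin anchoring genes all lay within 1.5-fold, with a median of 0.12; *Lrrc8a*, a subunit of the volume-regulated anion channel, differed most, at 35.8 and 44.2 CPM.

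Of 7 measured genes of bicarbonate and acid transport, 3 were lower in STZ and none higher, with a median of -0.51. *Bsg*, the chaperone of monocarboxylate carriers, went from 3608 to 2301 CPM, 1.57-fold (1.53 to 1.60) lower. The anion exchangers *Slc4a3* and *Slc4a2* went from 15.4 to 9.26 CPM and from 35.2 to 22.6 CPM. The lactate carrier *Slc16a1* went from 208 to 146 CPM, within 1.5-fold. In clusters 9 and 11 alone 2 of the 7 were lower. The other carbonic anhydrases measured, *Car5b* and *Car11*, lay within 1.5-fold at 89.5 and 92.2 CPM and at 25.5 and 29.7 CPM.

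Among 7 measured genes of thyroid hormone handling, the list nearest to *Dio2*, 1 was higher, 1 was lower and the median was 0.07. The lower one was *Slco1c1*, which carries thyroxine into cells: 88.7 CPM from 598 control UMIs and 36.5 CPM from 189 STZ UMIs, 2.43-fold (2.06 to 2.88) lower. In cluster 11 it was at 103 and 40.9 CPM and in cluster 9 at 61.4 and 28.6 CPM. The higher one was *Slc7a5*, the large neutral amino acid carrier, at 10.5 and 19.9 CPM. The receptors *Thra* and *Thrb* lay within 1.5-fold. The deiodinases *Dio1* and *Dio3* had 10 and 11 UMIs in control and 8 and 17 in STZ, too few to be measured.

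Of 4 measured other solute carriers of glia, *Slc6a6*, the taurine transporter, was 2.42-fold (2.22 to 2.64) higher in STZ, at 115 and 278 CPM. The glucose transporter *Slc2a1* was at 408 and 275 CPM, 1.48-fold lower, just inside the limit. *Klf6* was the 1 of 12 immediate-early genes past 1.5-fold, at 190 and 122 CPM, and the median of that list was -0.19. The list did not move one way within clusters. Its median was -0.47 in cluster 9, with 2 of 12 lower and none higher, where 5.44% of all genes were lower and 10.6% higher. In cluster 11 it was 0.50, with 4 of 11 higher and none lower, where 5.44% of all genes were higher and 4.7% lower. In cluster 8 it was 2.48, with 10 of 10 higher, where 28.0% of all genes were higher and 20.9% lower. *Dusp1* and *Klf6* had 0 control UMIs in cluster 8 and counted as measured there only through the STZ library. Cluster 9 held 31.1% of control and 16.9% of STZ Müller glia-like cells. *Jun* was at 2677 and 1932 CPM over all these cells, at 4941 and 3365 CPM in cluster 9 and at 1243 and 1409 CPM in cluster 11.

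**Figure D4:**
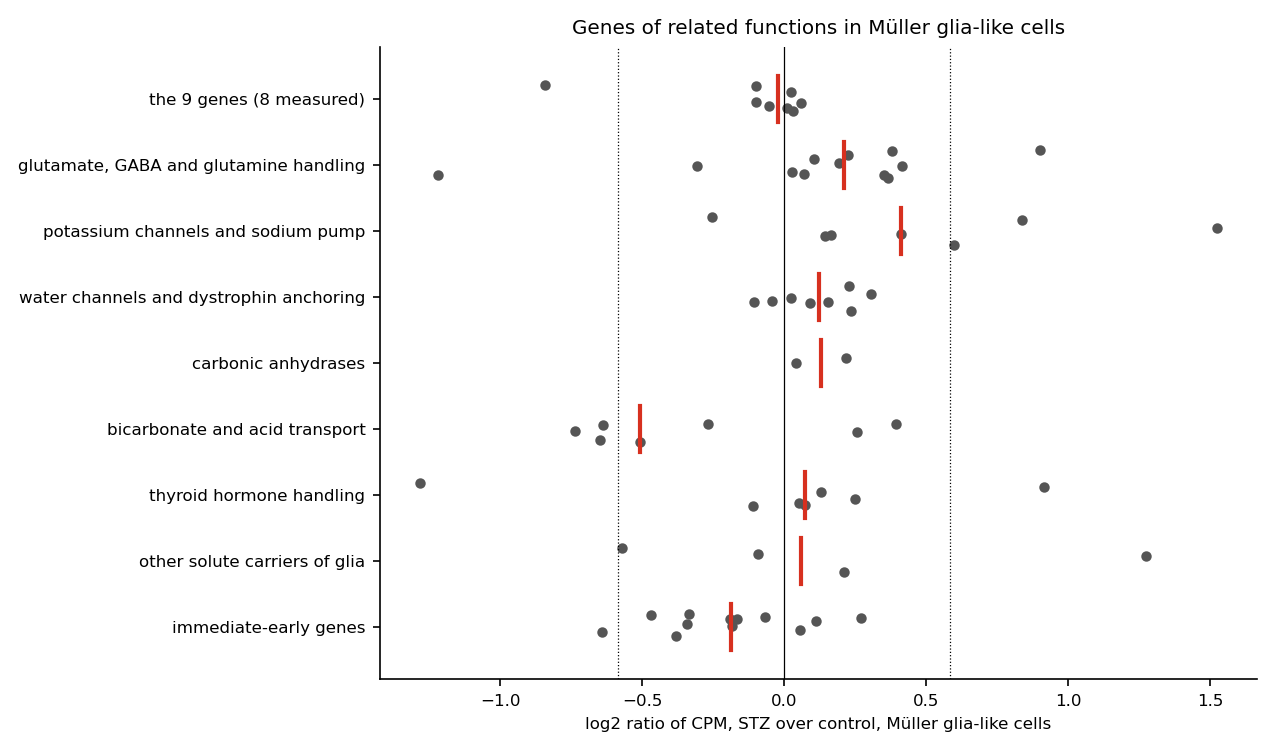
Log2 ratio of CPM, STZ over control, in Müller glia-like cells (horizontal) for each measured gene of the 9 and of 8 further lists; points are genes, red bars are list medians, and dotted lines mark 1.5-fold. The median is lowest for bicarbonate and acid transport (-0.51) and highest for potassium channels and sodium pump (0.41).

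The genes most like each of the 9 were found by the correlation of log2(CPM + 1) over 8 classes in 2 libraries, 16 points, among 7493 genes. The classes share libraries, so r is a description. For *Glul* the closest were *Ildr2* (Pearson r = 0.98), *Apoe* and *Bdh2*, and for *Slc1a3* *Dkk3* (0.98), *Slitrk2* and *Pax6os1*. For *Kcnj10* they were *Bmp3* (0.95), *Slc13a5* and *Pdlim4*, and for *Aqp4* *Fam159b* (0.99), *Col9a1* and *Mlc1*. *Car14* was closest to *Rlbp1* (0.98), *Efemp1* and *Acot11*, and *Dio2* to *Popdc3* (0.99), *Lrrc66* and *Rmst*. *Dkk3*, *Col9a1* and *Rlbp1* are among the markers that named the Müller glia-like clusters. *Car2* was closest to *Ncam1* (0.98), *Thoc7* and *Bicd1*. *Slc4a4* was closest to *Ano3* (0.96), *Mypn* and *Ttc1*, and *Slc38a3* to *Fryl* (0.90), *Mrps21* and *Slc1a2*.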

How the data were processed

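The deposited table holds whole-number UMI counts per gene and cell for both libraries, made by the authors with Cell Ranger 3.0.1 and Seurat 3.0 on mm10, per the submitters' processing notes. No cell has more than 2999 genes, and no other filter of the authors is stated in the sources used here. The library of a cell was taken from the ending of its name. Cells with fewer than 200 genes or more than 20% mitochondrial counts were removed (25.7% of control and 28.5% of STZ cells), then the highest Scrublet doublet scores at 0.8% per 1000 cells in each library (227 and 628 cells). Clustering (scanpy 1.11.5, Python 3.11.15) used 2000 variable genes without the 9 genes and the listed genes, 30 components, 15 neighbours and Leiden resolution 1.0, giving 26 clusters. Classes under 50 cells in either library, and unnamed clusters (450 control and 1876 STZ cells), were not compared. Unnamed cluster 13 held 6 control and 1362 STZ cells. In STZ it had 2268 CPM of *Glul*, 176 CPM of *Aqp4*, 168 CPM of *Slc1a3* and 41.4 CPM of *Kcnj10*. Its cells are in the sums over all kept cells.

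UMIs were summed per class and library and given as CPM (per 1000000 UMIs), with exact 95% Poisson intervals; ratios have conditional binomial and shares exact Clopper-Pearson intervals. All cover counting error only. The ratio script was tested on simulated counts. With 1 library per group there is no test.

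The 9 genes and the lists were chosen with earlier results of these data known. All 9 are described; of each list, up to 4 measured genes with the largest absolute log2 ratio in Müller glia-like cells are named (further ones, and genes within clusters, were chosen after their values were seen), and for each of the 9 genes the 3 most alike. Some genes that this rule picks are not reported here.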

Additional observations from a re-analysis of the deposited data

Results flagged for a closer look

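Ratios between the libraries were compared for each gene over classes and over Müller glia-like clusters, taking the 2 groups farthest apart where at least 1 ratio passed 1.5-fold. In 4 such pairs the ratios pointed one way in one group of cells and the opposite way in the other, with counting intervals that exclude 0 in both. None of these differences was tested. *Slc1a3* had a log2 ratio, STZ over control, of 3.89 (1.98 to 6.97) in endothelial-like cells, on 2 control UMIs, and -0.10 in Müller glia-like cells, a difference of 4.00. *Car2* had 2.91 (2.18 to 3.73) in endothelial-like and -0.49 (-0.69 to -0.29) in amacrine-like cells, a difference of 3.40. The amacrine-like value pools 2 clusters in different proportions, which had 3021 and 2782 CPM (cluster 16) and 365 and 352 CPM (cluster 20) in control and STZ. The endothelial-like cells of the STZ library held 14.2% of the Müller glia marker level and those of the control library 3.07%. Between Müller glia-like clusters, *Glul* had 0.16 (0.13 to 0.19) in cluster 9 and -0.69 (-0.81 to -0.57) in cluster 8, and *Car2* had 0.07 (0.01 to 0.14) and -0.77 (-1.02 to -0.53). The differences were both 0.85. Cluster 8 held 3426 CPM of rod markers in control and 9357 CPM in STZ. Its summed Müller glia markers went from 16042 to 9964 CPM, and those of cluster 9 from 18998 to 18148 CPM. The part of these marker levels in the ratios was not tested.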

How the results depend on the processing

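*Dio2* was at least 1.5-fold lower in STZ under all 19 alternatives in which it was measured, with log2 ratios from -1.25 (mean over cells) to -0.65 (cluster 9 alone). In the main setting, 0 genes were lower at a 2-fold threshold. The mean over cells and cluster 19 alone (log2 ratio -1.04) took *Dio2* past 2-fold. The other genes ranged from -0.69 to 0.16 (*Glul*), -0.32 to 0.33 (*Slc1a3*), -0.90 to 0.42 (*Kcnj10*), -0.18 to 0.37 (*Aqp4*), -0.77 to 0.07 (*Car2*), -0.22 to 0.18 (*Car14*) and -0.18 to 1.66 (*Slc38a3*). Only cluster 8 alone took any of these 7 past 1.5-fold, with 1 gene higher and 3 lower of 7 measured. The median log2 ratio moved to -0.21 with cells thinned to 500 UMIs, -0.19 as a mean over cells, -0.15 in cluster 8, 0.17 in cluster 9 and -0.21 in cluster 19; the cause was not tested. Limiting Müller glia-like cells to clusters 9 and 11, and weighting clusters as in control, were chosen after seeing the data and changed no call among the 8 genes. No paired analysis was possible because each group has 1 library. Depth limits *Slc4a4* in Müller glia-like cells and *Dio2* in clusters 8 and 19.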

Other observations

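Cells outside the compared classes added to where these genes were found. Astrocyte-like cells, only 7 in control and 8 in STZ, had 5205 and 3974 CPM of *Glul* and 900 and 645 CPM of *Slc1a3*, and no UMI of *Aqp4* or *Dio2*, which allows up to 79.0 and 99.1 CPM of each. They had the highest *Slc4a4* level among the named cells, at 193 CPM (88.1 to 366) and 242 CPM (111 to 459), on 9 UMIs in each library. Pigment epithelium-like cells, 49 in control and 202 in STZ, had more *Car14* than Müller glia-like cells, at 1616 CPM (1363 to 1903) and 1408 CPM (1281 to 1543), together with 101 and 128 CPM of *Slc4a4* and no *Dio2* UMI. Microglia-like cells, 40 and 103, had 446 and 568 CPM of *Glul*, 3.54 (2.63 to 4.66) and 4.00 (3.39 to 4.69) times the level set by the Müller glia markers there (1.92 and 3.45 by *Rlbp1* alone).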
